A study of Equus caballus with 24 samples.

Results

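The breed difference in the adult pituitary was measured in 6 of the 24 libraries of the series, 3 from adult Debao ponies (DPs, group DPPA) and 3 from adult Mongolian horses (MHs, group MHPA). The Debao pony is a small Chinese breed and the Mongolian horse a larger one, and the study sequenced RNA from the pituitary and from long bone epiphysis in juveniles and adults of both breeds. All 6 horses were females of more than 3 years sampled at a slaughterhouse, with no treatment or genetic change named in the labels, so that the groups differed by breed. The members of the comparison were the columns of these 6 libraries with all 24232 genes of the read table. The labels number the samples 1 to 3 within each breed and name the tissue only as pituitary, without saying which lobe a piece came from.

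The pituitary joins 2 lobes of different origin. The anterior lobe holds endocrine cells that make growth hormone, prolactin, the pro-opiomelanocortin peptides, thyrotropin and the gonadotropins under the control of releasing hormones from the hypothalamus. The posterior lobe is neural tissue in which axons from the hypothalamus store and release vasopressin and oxytocin among glial cells called pituicytes. Growth hormone from the anterior lobe acts on the growth plates of long bones, directly and through insulin-like growth factor 1, and the study compared the organ between breeds of unequal height.

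The clearest difference lay in 5 short genes without a symbol, which were lower in DPs with log2 fold changes of −2.55 to −1.96. Among named genes, QPCTL, ALPK1, TIE1, STAB2 and 8 others were lower in DPs under every setting tried, while CLGN, POLR3GL and TCEAL1 were higher in DPs under every setting. The hormone genes of the anterior lobe varied more between pieces of one breed than between the breeds and did not pass the test.

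The label pituitary was checked against markers of both lobes, and DPPA 1 and MHPA 1 stood apart from the other 4 libraries. Levels are given as CPM, which are reads scaled to the library size after TMM normalization. The summed level of the 7 anterior hormone genes was 67.1, 27423 and 14304 CPM in DPPA 1 to 3 and 6.18, 19189 and 29254 CPM in MHPA 1 to 3. Thus DPPA 1 and MHPA 1 held almost no hormone RNA, and POU1F1, the transcription factor of growth hormone and prolactin cells, had 2 and 0 reads there. DPPA 1 held 22751 reads of AVP, the vasopressin precursor, against 6 to 55 reads in the other 5 libraries, and it had the highest summed level of pituicyte and astrocyte genes, 18566 CPM against 2173 to 9788 CPM elsewhere. MHPA 1 had the highest summed level of myelin and oligodendrocyte genes, 20658 CPM, against 4794 CPM in DPPA 1 and 118 to 262 CPM in the hormone-rich libraries. MHPA 1 also had 139999 reads of TTR, the thyroid hormone carrier made by the choroid plexus, but 6 reads of AVP. RAX and NKX2-1, which mark pituicytes, and COL25A1 of the same list did not follow the sum of the glial genes. They had 71, 63 and 275 reads in DPPA 1, 1, 3 and 35 reads in MHPA 1, and 38 to 330, 11 to 60 and 92 to 679 reads in the hormone-rich libraries. The remaining libraries, DPPA 2 and 3 and MHPA 2 and 3, all carried the defining markers of the anterior lobe. The log10(RPKM + 1) profiles of these 4 correlated at 0.978 to 0.988 with each other across genes, DPPA 1 and MHPA 1 were closest to each other (0.953), and genes within a library are not independent replicates. Where a DEG named below lost its call without DPPA 1 and MHPA 1, this is therefore stated, for most genes with its value. The changes in the gene lists without these libraries are summarized after the lists. In bulk tissue, fewer cells of a type and less RNA per cell cannot be told apart.

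**Figure D1:**
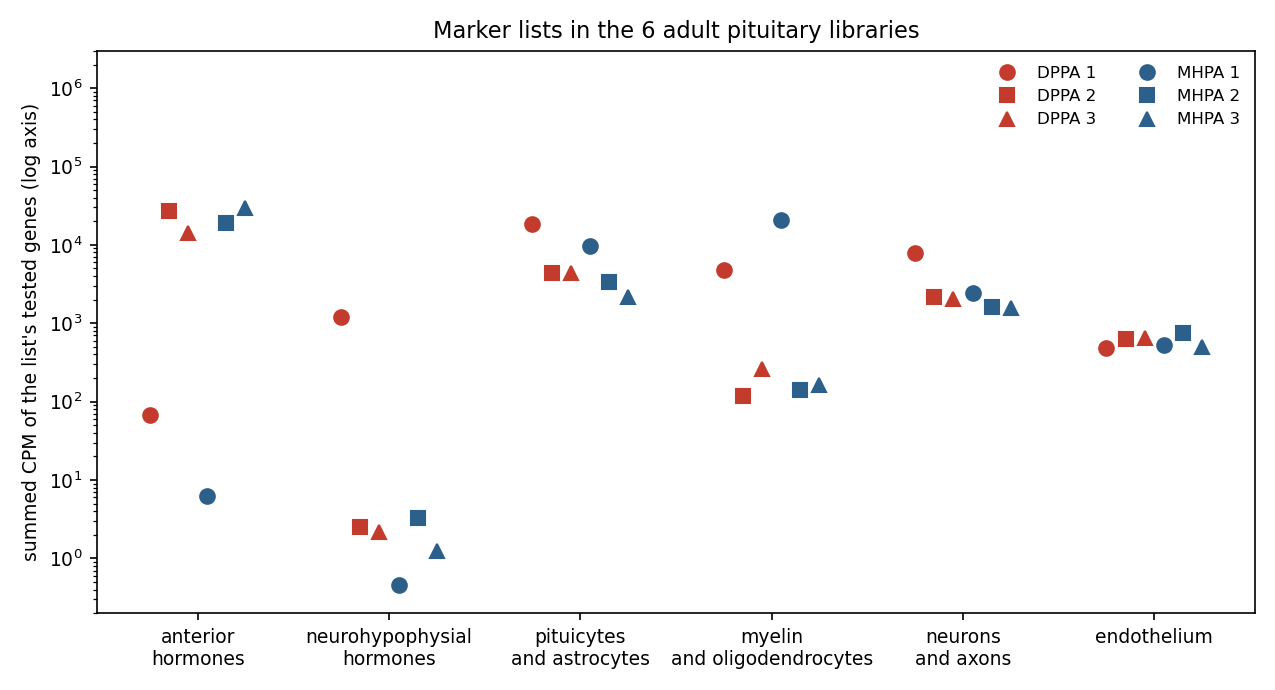
Summed CPM of the tested genes of 6 marker lists (log axis) in each adult pituitary library, DPs in red and MHs in blue, with 1 symbol shape per replicate number. DPPA 1 and MHPA 1 lie at 67.1 and 6.18 CPM for the anterior hormones, and DPPA 1 alone carries the neurohypophysial hormones, while endothelial genes lie between 478 and 753 CPM in every library.

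Depth also moved with breed. Between 19413767 and 23573036 reads were counted on genes in the DPPA libraries and between 14006324 and 14443142 in the MHPA libraries, so every DP library was deeper than every MH library, and the part of depth in the results was not tested. The labels give no batch of library preparation, and breed and such a batch cannot be told apart. Differentially expressed genes (DEGs) were called with edgeR's quasi-likelihood test at the threshold of the study, a P under 0.05 before adjustment together with a change of more than 2-fold. Of 14376 genes tested, 421 (2.93%) passed as DEGs. DPs had the higher level in 252 of them (1.75%) and the lower level in 169 (1.18%). The threshold does not allow for the number of genes, of which 1310 (9.11%) had a P under 0.05 at any fold. With Benjamini-Hochberg adjustment only 5 genes (0.0348%) passed 0.05, and the median adjusted p of the DEGs was 0.503. An adjusted p of this size is the estimated share of false calls among the genes with a P at least as low. The DEGs named below are therefore given with their library values, and those with an adjusted p over 0.05 are calls at the unadjusted threshold.

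The balance of the directions depended on the scaling. DPs had the higher value in 59.9% of the DEGs after TMM normalization, but with library size alone 131 genes were higher and 349 lower (27.3% higher), and limma on log2(RPKM + 1) gave 76 higher and 125 lower. Without TMM the median log2 fold change of all tested genes moved from −0.013 to −0.219, so small increases in DPs are relative to the TMM scale. All 169 DEGs lower in DPs kept their call without TMM, and 131 of the 252 higher ones did. Changes of more than 4-fold were found in 56 of the higher and 58 of the lower genes.

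Leaving out DPPA 1 and MHPA 1 raised the number of DEGs to 866 of 14394 genes (6.02%), 486 higher and 380 lower in DPs. Of the 421 DEGs of the 6 libraries, 265 remained, 141 of them higher and 124 lower. Under all 16 alternative settings together, 78 of the 421 kept their call and direction, 32 higher and 46 lower in DPs. DP and MH libraries were fully separate in 387 of the 421 DEGs, as they were in 17.6% of all tested genes.

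**Figure D2:**
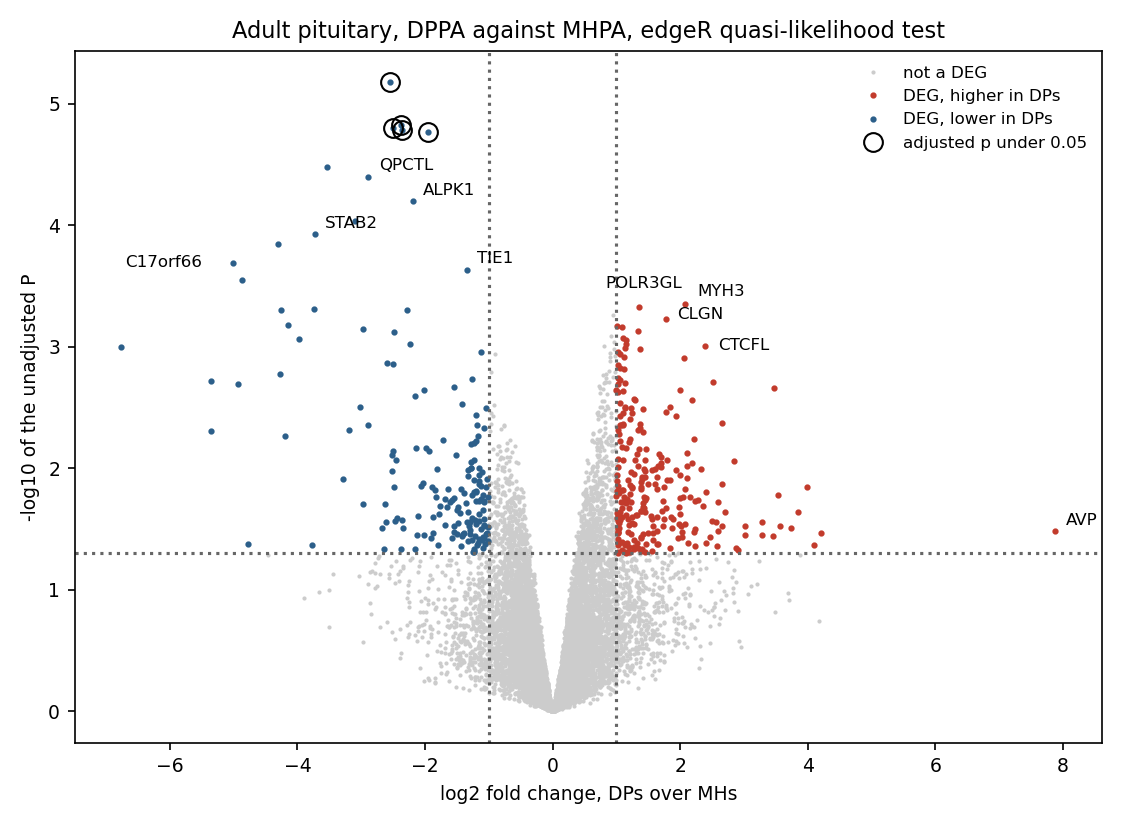
Log2 fold change of DPs over MHs (x axis) against −log10 of the unadjusted P (y axis) for each tested gene, with DEGs in colour, the thresholds as dotted lines and genes with an adjusted p under 0.05 circled. The 5 circled genes lie on the side lower in DPs, and AVP lies alone at the right with a log2 fold change of 7.88.

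The 5 genes with an adjusted p under 0.05 were all short genes without a symbol in the files. They were between 74 and 93 bases long, and all were lower in DPs with log2 fold changes of −2.55 to −1.96. The lowest P belonged to ENSECAG00000027096, a gene of 88 bases, which had 41.5, 31 and 40.1 CPM in DPPA 1 to 3 and 214, 222 and 223 CPM in MHPA 1 to 3. Every MH library was more than 4 times as high as every DP library for this gene, and the difference was past the adjusted threshold (log2 fold change −2.55, SE 0.182, adjusted p = 0.049 by edgeR). The gene of 93 bases, ENSECAG00000025328, had 82.2, 87.5 and 90.7 CPM in DPPA and 327, 313 and 375 CPM in MHPA (log2 fold change −1.96, SE 0.164, adjusted p = 0.049 by edgeR). The other 3, of 84, 86 and 74 bases, had 23.7 to 51.1 CPM in the DPPA libraries and 121 to 309 CPM in the MHPA libraries. The groups were thus widely separated for all 5, with DPPA 1 and MHPA 1 at the levels of their own breed, and the log2 fold changes were −2.67 to −1.97 without those 2 libraries. In a fit with the replicate numbers as blocks, in which 4.12% of genes were DEGs, the log2 fold changes were −2.56 to −1.96 and the 5 remained DEGs, but no gene had an adjusted p under 0.05, the lowest being 0.132 by edgeR.

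The summed level of short genes was lower in DPs through 7 of these genes. Of 30 tested genes under 100 bases, 7 were DEGs, all lower in DPs, and 18 had a negative log2 fold change, with a median of −0.54. The summed level of these 30 genes was 476, 323 and 349 CPM in DPPA 1 to 3 and 1460, 1251 and 1300 CPM in MHPA 1 to 3, and every MH library was more than 2 times as high as every DP library. The 7 DEGs gave most of the sum in the MH libraries, and the summed level of the other short genes was not lower in DPs. Genes of 100 bases or more were divided into 4 classes by length, whose medians went from −0.11 in the shortest to 0.059 in the longest, and the share of DEGs fell from 23.3% under 100 bases to 7.93%, 3.88%, 2.52% and 2.25% in the 4 longer classes. The remaining 2 short DEGs, of 88 and 69 bases, had 0.509 to 1.51 CPM in DPPA and 9.04 to 18.2 CPM in MHPA. The 10 short genes with a symbol, small nucleolar RNAs of the SNORD families and microRNA genes, held no DEG. SNORD112, for example, had 18.8, 32.4 and 40.3 CPM in DPPA and 4.35, 37 and 26.5 CPM in MHPA, which overlap. 5S_rRNA, an annotated copy of the small RNA of the large ribosomal subunit, had 0.833, 0.897 and 1.12 CPM in DPPA and 4.04, 4.73 and 5.19 CPM in MHPA (log2 fold change −2.28, SE 0.345, adjusted p = 0.36 by edgeR). It was lower in every DP library, but 5S RNA is encoded by many near-identical copies and the ribosomal RNA had been depleted, so reads of this gene are uncertain.

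Among named genes, the 12 with the lowest P lower in DPs were QPCTL, ALPK1, STAB2, TMEM177, C17orf66, TIE1, UPK3B, MMP13, 5S_rRNA, CACNA1S, RFX1 and SBK1. These genes were chosen for a low P and for breeds that do not overlap. Their separate breeds and close replicates therefore follow from the choice, and 17.6% of all tested genes had separate breeds. All 12 remained DEGs in the same direction under each of the 16 alternatives, including without DPPA 1 and MHPA 1 and with the replicate block. Their adjusted p was 0.0819 to 0.36 by edgeR. QPCTL, an enzyme of the Golgi that converts N-terminal glutamine of secreted peptides to pyroglutamate, had 3.44, 2.17 and 2.6 CPM in DPPA 1 to 3 and 20.1, 21.7 and 19 CPM in MHPA 1 to 3. The fold was 7.4 (log2 fold change −2.89, SE 0.279, adjusted p = 0.0819 by edgeR). ALPK1, a kinase that senses a bacterial sugar, had 5.52, 7.04 and 5.91 CPM in DPPA and 24.5, 28.8 and 30.8 CPM in MHPA (log2 fold change −2.19, SE 0.229, adjusted p = 0.115 by edgeR).

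Among the 12 were 2 genes of vessels. TIE1, a receptor tyrosine kinase of endothelial cells, had 27.1, 28.8 and 29.3 CPM in DPPA and 80.8, 60.8 and 76 CPM in MHPA (log2 fold change −1.35, SE 0.177, adjusted p = 0.257 by edgeR). STAB2, a scavenger receptor for hyaluronan on sinusoidal endothelium, had 0.521, 1.09 and 0.968 CPM in DPPA and 8.16, 12.6 and 13.6 CPM in MHPA (log2 fold change −3.73, SE 0.435, adjusted p = 0.17). Both genes were lower in all DP libraries, as the choice of the 12 required. Of the list of 16 endothelial markers, 13 were tested, and TIE1 was the only DEG over the 6 libraries. In this list 5 genes had a positive and 8 a negative log2 fold change, and the median was −0.29. The summed level overlapped between the breeds (478, 637 and 643 CPM in DPPA and 528, 753 and 497 CPM in MHPA). Without DPPA 1 and MHPA 1, CDH5 of this list was also a DEG lower in DPs (log2 fold change −1.15, SE 0.28, adjusted p = 0.0954 by edgeR).

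Several of the genes lower in DPs were near the limit of detection there. TMEM177, a mitochondrial membrane protein of cytochrome c oxidase assembly, had 0.677, 0.803 and 0.662 CPM in DPPA and 6.41, 19 and 17.2 CPM in MHPA. C17orf66 had 0.104, 0.331 and 0.407 CPM in DPPA, from 2, 7 and 8 reads, and 5.64, 8.92 and 13.2 CPM in MHPA. MMP13, a collagenase known from cartilage and bone, had 0.26, 0.897 and 0.255 CPM in DPPA and 6.63, 11.2 and 9.74 CPM in MHPA. In these 3 genes each MH library was at least 7 times above the highest DP library, and their log2 fold changes were −4.30 (SE 0.519), −5.01 (SE 0.646) and −4.26 (SE 0.642). UPK3B, a uroplakin of urothelium and mesothelium, and CACNA1S, the calcium channel of skeletal muscle, showed the same pattern, with 0.102 to 0.833 CPM in DPPA and 4.04 to 14.2 CPM in MHPA. RFX1, a transcription factor of the regulatory factor X family, had 9.48, 25.5 and 16 CPM in DPPA and 77.6, 163 and 159 CPM in MHPA, and the kinase SBK1 had 2.66, 9.59 and 4.84 and 39.7, 111 and 119 CPM. For both, the replicate 1 library was the lowest of its own breed.

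The 12 named genes with the lowest P higher in DPs were MYH3, POLR3GL, CLGN, GPATCH11, ANAPC15, TCEAL1, SMARCE1, CTCFL, CALD1, DBNL, SRSF4 and CD3EAP. They were chosen by the same rule, so the separation of the breeds in these genes is not a result. Their adjusted p was 0.36 by edgeR in each case and 7 of the 12 had log2 fold changes of 1.01 to 1.14, just over the threshold. Those 7, ANAPC15, CALD1, CD3EAP, DBNL, GPATCH11, SMARCE1 and SRSF4, lost their call without TMM, and CD3EAP was the only one of the 12 to lose it without DPPA 1 and MHPA 1 (log2 fold change 0.97). Leaving out single libraries ended the call of GPATCH11 (without DPPA 2, MHPA 1 or MHPA 2), SMARCE1 (without DPPA 2), DBNL (without MHPA 2 or 3) and SRSF4 (without DPPA 2 or MHPA 3), and the log2 fold changes of the 12 were then between 0.92 and 2.48. CLGN, an endoplasmic reticulum chaperone best known from the testis, had 74.4, 83.3 and 88.3 CPM in DPPA and 15.4, 27.9 and 28.1 CPM in MHPA. All DP libraries were more than 2 times above all MH libraries (log2 fold change 1.78, SE 0.276, adjusted p = 0.36 by edgeR), and the call held in all 16 alternatives. MYH3, the embryonic myosin heavy chain of skeletal muscle, had 8.18, 12 and 11.2 CPM in DPPA and 2.75, 2.6 and 2.09 CPM in MHPA (log2 fold change 2.08, SE 0.306, adjusted p = 0.36), a low level in both breeds. CTCFL, a testis paralogue of the chromatin factor CTCF, was at 1.93, 1.65 and 1.68 CPM in DPPA and 0.381, 0.355 and 0.253 CPM in MHPA (log2 fold change 2.39, SE 0.412, adjusted p = 0.36). MYH3 and CTCFL each lost the call in 1 alternative, limma on log2(RPKM + 1), where values this low are compressed by the pseudocount of 1.

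Among these 12 were subunits of RNA polymerases and of a chromatin remodelling complex, functions for which no gene list was set. POLR3GL, a subunit of RNA polymerase III, had 64.1, 90.6 and 74 CPM in DPPA and 31.6, 32 and 26.2 CPM in MHPA (log2 fold change 1.35, SE 0.2, adjusted p = 0.36 by edgeR). CD3EAP, a subunit of RNA polymerase I, had 58.1, 56.5 and 41.4 and 22.6, 24.6 and 24.3 CPM. SMARCE1, a subunit of the SWI/SNF chromatin remodelling complex, had 309, 417 and 327 CPM in DPPA and 156, 163 and 168 CPM in MHPA, and the splicing factor SRSF4 had 363, 483 and 425 and 198, 222 and 193 CPM. In each of these genes the group means differed by about 2-fold, with the breeds separate by choice. TCEAL1, of the transcription elongation factor A-like family, had 86, 67.2 and 70.4 CPM in DPPA and 30, 23.7 and 35.2 CPM in MHPA and kept its call in all 16 alternatives. CALD1 and DBNL encode actin-binding proteins, ANAPC15 a subunit of the anaphase-promoting complex and GPATCH11 a G-patch protein. POLR3GL, GPATCH11 and ANAPC15 each overlap another protein-coding gene in the RefSeq annotation of another horse assembly, TB-T2T. The sources used here do not state whether reads were counted by strand, so their values are uncertain.

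**Figure D3:**
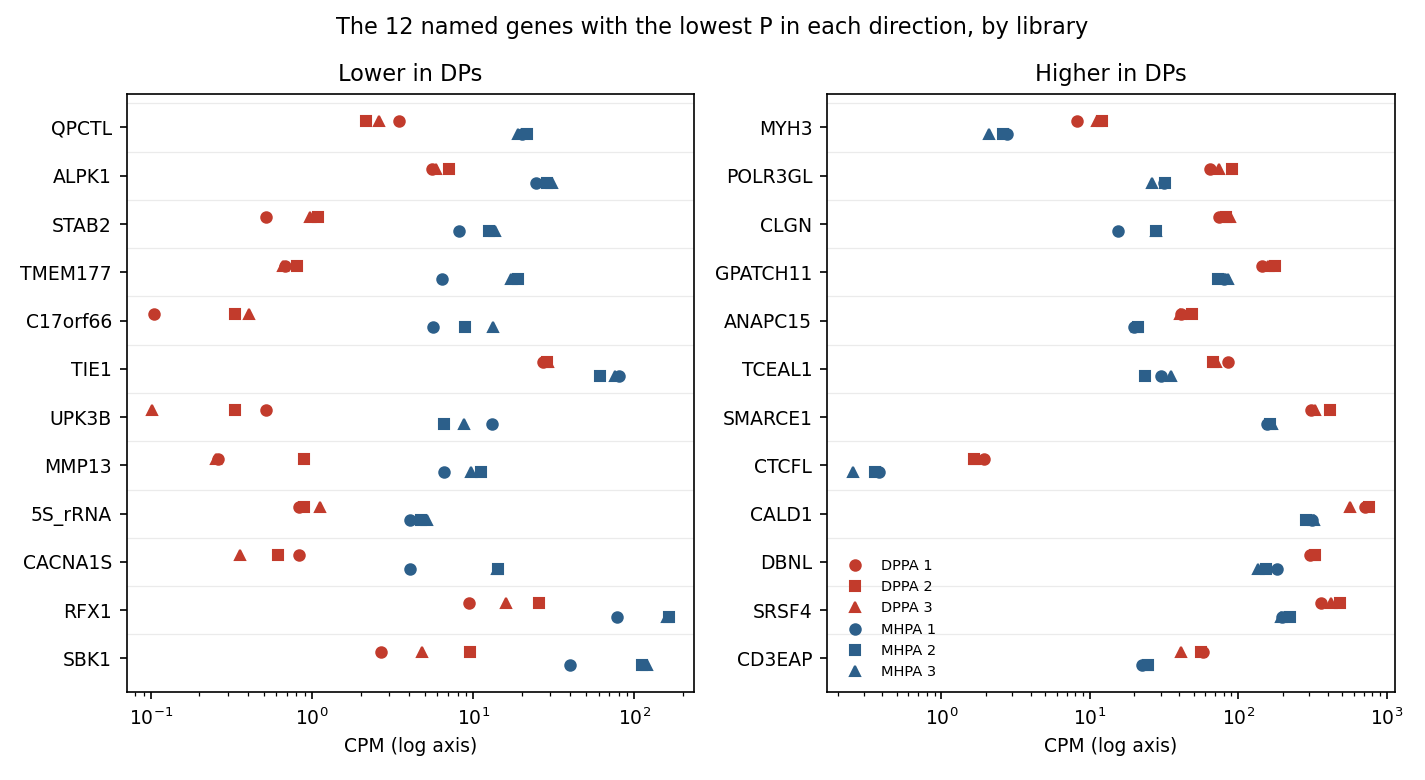
CPM (log axis) of the 12 named genes with the lowest P in each direction in every adult pituitary library, DPs in red and MHs in blue, with the symbol shape giving the replicate number. The breeds are separate in every gene because the genes were chosen that way, and the gaps are wider for the genes lower in DPs, such as C17orf66 with 0.104 to 0.407 CPM against 5.64 to 13.2 CPM.

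The hormones of the anterior lobe did not pass the test. In GH, growth hormone, the DPPA libraries held 7.39, 10935 and 7522 CPM and the MHPA libraries 0.381, 5737 and 12465 CPM. The spread within each breed was more than 3 orders of magnitude, since replicate 1 held almost none, and the log2 fold change of 0.02 had an SE of 2.58 and an adjusted p of 0.999 by edgeR. PRL, prolactin, had 1.51, 3108 and 1779 CPM in DPPA and 0.534, 2637 and 12469 CPM in MHPA, with a log2 fold change of −1.63 (SE 2.66). POMC, the precursor of corticotropin and melanotropin, had 6.93, 11696 and 2326 CPM in DPPA and 0.153, 9023 and 2101 CPM in MHPA. Among the hormone-rich libraries, PRL was highest in MHPA 3 and POMC was high in replicate 2 of both breeds and lower in replicate 3 of both. The glycoprotein hormone subunits were spread as widely. CG, the symbol in the files for the common alpha subunit, had 50.5, 1526 and 2571 CPM in DPPA and 0.153, 1494 and 2075 CPM in MHPA. FSHB, the beta subunit of follitropin, had 0.0521, 96.3 and 52.9 and 0, 252 and 95 CPM, TSHB, that of thyrotropin, had 0, 0.992 and 21.6 and 0, 5.14 and 33.8 CPM, and the unnamed gene described in the files as the lutropin beta subunit had 0.781, 59.9 and 31.2 and 4.96, 40.2 and 16.1 CPM. All 7 hormone genes overlapped between the breeds over the 6 libraries, and the sign of the fold change turned under at least 1 alternative in every one of them, so no direction is given. Without DPPA 1 and MHPA 1, FSHB passed the unadjusted threshold (log2 fold change −1.24, SE 0.481, adjusted p = 0.201 by edgeR), and it also passed with the replicate block (−1.05, adjusted p = 0.342).

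Upstream and beside the hormones, few genes were DEGs over the 6 libraries, where the wide spread from the replicate 1 libraries limited the test. The 4 hormone-rich libraries, in which 6.02% of all genes were DEGs, gave more calls. There 2 of the 7 receptors were lower in DPs. Of the 18 transcription factors 2 were higher and 1 lower, and of the 18 secretion genes 1 was higher. Of the receptors for releasing and inhibiting hormones, 7 members were tested, 2 had a positive and 5 a negative log2 fold change, and the median was −0.31. None was a DEG over the 6 libraries, while GHSR, the ghrelin receptor, and TRHR, the receptor for thyrotropin-releasing hormone, were lower in DPs without DPPA 1 and MHPA 1 (log2 fold change −1.08 and log2 fold change −1.54, adjusted p = 0.161 and 0.0754 by edgeR). DRD2, the dopamine receptor that restrains prolactin cells, had 64.1 ± 68.1 CPM in DPs and 79.6 ± 68.1 CPM in MHs (SD, n = 3 each). GHRHR, the receptor for growth hormone-releasing hormone, had 70.9 ± 80 CPM in DPs and 63.8 ± 55.2 CPM in MHs (SD, n = 3 each) and was close to 0 in both replicate 1 libraries. Of the transcription factors that specify anterior lobe cells, 18 members were tested, 7 had a positive and 11 a negative log2 fold change, and the median was −0.2. ISL1, a LIM-homeodomain factor of the early pituitary and of gonadotrophs, was the only DEG among them, with 29.1, 6.94 and 45.2 CPM in DPPA and 1.3, 4.31 and 8.16 CPM in MHPA. Although MHPA 3 lay above DPPA 2, the gene was called (log2 fold change 2.56, SE 0.891, adjusted p = 0.515 by edgeR), and the log2 fold change was 2.04 without DPPA 1 and MHPA 1. Its call was lost without DPPA 1 or DPPA 3 and without MHPA 1 or MHPA 2 (1.97 to 3.24 over the single libraries). In the 4 hormone-rich libraries NEUROD1, a factor of corticotrophs, was a DEG higher in DPs (log2 fold change 1.48, adjusted p = 0.0443 by edgeR) and TBX19, also of corticotrophs, a DEG lower in DPs (log2 fold change −1.10, adjusted p = 0.198). Of the granins, prohormone convertases and exocytosis proteins, 18 members were tested, 16 had a positive and 2 a negative log2 fold change, and the median was 0.64. None was a DEG. CHGA, chromogranin A, had 3400, 10853 and 19798 CPM in DPPA and 61.8, 3332 and 5479 CPM in MHPA, and its log2 fold change of 1.94 (SE 1.39) had an adjusted p of 0.698 by edgeR. Within the 4 hormone-rich libraries CHGA was a DEG, higher in DPs by 1.78 (SE 0.401, adjusted p = 0.0853 by edgeR), and the median of the list there was 0.25. CHGB, secretogranin 1, had 2135, 14780 and 8107 and 67.3, 6070 and 7234 CPM and passed neither test.

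Genes of the posterior lobe and of neural tissue had their highest levels in DPPA 1 or MHPA 1, and their calls depended on these libraries. AVP passed as a DEG (log2 fold change 7.88, SE 2.87, adjusted p = 0.515 by edgeR), but its level was 1185, 2.5 and 2.14 CPM in DPPA and 0.458, 3.25 and 1.26 CPM in MHPA. DPPA 1 alone was high, the call was lost without DPPA 1 or any MHPA library (0.48 to 8.79), and without DPPA 1 and MHPA 1 the log2 fold change was 0.01. Of the genes of pituicytes and astrocytes, all 13 tested had a positive log2 fold change, with a median of 0.9, and 1 was a DEG. SPARCL1, a matrix protein secreted by astrocytes, had 6811, 3686 and 2911 CPM in DPPA and 2652, 2341 and 1551 CPM in MHPA (log2 fold change 1.03, SE 0.424, adjusted p = 0.546 by edgeR), and it was no DEG without DPPA 1 and MHPA 1 (0.74) or with the replicate block. Of the single libraries, only leaving out DPPA 3 kept its call (0.60 to 1.27). The call was also lost without TMM, with limma on either RPKM scale and in the fit of all 12 pituitary libraries. The median of the list was 0.74 without DPPA 1 and MHPA 1, where GFAP and SLC1A3 were DEGs higher in DPs, with DPPA 3 at 100 and 101 CPM and the other 3 libraries at 3.73 to 6.52 and 9.81 to 11.8 CPM. Of the neuronal genes, 17 members were tested, 16 had a positive and 1 a negative log2 fold change, and the median was 1.2, while all 16 tested myelin genes had a negative one with a median of −1.5. Neither list held a DEG over the 6 libraries. Without DPPA 1 and MHPA 1 the medians were 0.2 and 0.67, so that the sign of the myelin median turned. The neuronal list then held 2 DEGs, both higher in DPs, and with the replicate block 4, while the myelin list held 1 in each direction without those libraries. MBP, myelin basic protein, had 1852, 57.4 and 105 CPM in DPPA and 10331, 55.4 and 76.6 CPM in MHPA, highest in MHPA 1 and next in DPPA 1. The neurofilament gene NEFM, with 2269, 608 and 742 CPM in DPPA and 1231, 250 and 276 CPM in MHPA, was higher in DPs without DPPA 1 and MHPA 1 (log2 fold change 1.34, SE 0.163, adjusted p = 0.0426 by edgeR), as was NEFH (log2 fold change 1.98, adjusted p = 0.0587). Of the receptors for GABA and glutamate, 26 members were tested, 21 had a positive and 5 a negative log2 fold change, and the median was 0.7, with a median of 0.0061 without the replicate 1 libraries, where 2 were DEGs higher and 1 lower in DPs, and no DEG over all 6.

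The lists of the growth hormone, thyroid hormone, activin and PI3K-Akt systems held no DEG among their tested members over the 6 libraries. The lists did not include TSHR, the thyrotropin receptor, which was a DEG with high levels in DPPA 1 and 3 alone. Of growth hormone receptor signalling and the insulin-like growth factors, 17 members were tested, 4 had a positive and 13 a negative log2 fold change, and the median was −0.15. IGFBP2 and IGF2R, a binding protein and a clearance receptor of insulin-like growth factors, were in the range of 21.1 to 46.3 CPM in DPs and 35.9 to 143 CPM in MHs for the first and at 70.4 ± 17 CPM in DPs and 75.3 ± 27.7 CPM in MHs (SD, n = 3 each) for the second. Of the thyroid hormone axis, 10 members were tested, 4 had a positive and 6 a negative log2 fold change, and the median was −0.078. Of the activin and follistatin system, which sets the output of follitropin, 20 members were tested, 9 had a positive and 11 a negative log2 fold change, and the median was −0.031, and for PI3K-Akt signalling with its growth factor receptors these were 33, 15, 18 and −0.037. These medians compare with −0.013 over all tested genes, of which 2.93% were DEGs. Without DPPA 1 and MHPA 1, IGFBP4 of the first list was a DEG lower in DPs (log2 fold change −1.02), and BMP4 and MET of the latter 2 were DEGs higher in DPs (log2 fold change 1.16 and log2 fold change 1.02), with adjusted p of 0.0978 to 0.12 by edgeR. Among the genes near height loci of horse breeds, 10 members were tested, 6 had a positive and 4 a negative log2 fold change, and the median was 0.2. HMGA2, a chromatin protein tied to body size, was the only DEG of this list and lower in DPs. It had 0.312, 0.661 and 0.102 CPM in DPPA and 0.686, 2.36 and 2.91 CPM in MHPA, from 6, 14 and 2 reads and from 9, 40 and 46 reads. At this depth every MH library was above every DP library, by a narrow margin for MHPA 1 (log2 fold change −2.44, SE 0.843, adjusted p = 0.515 by edgeR), and the call was lost without DPPA 1, DPPA 3, MHPA 2 or MHPA 3, with log2 fold changes over the single libraries of −3.23 to −2.01.

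Of 34 tested genes of WNT signalling, a pathway that patterns the developing gland, 2 were DEGs and the median was 0.15. FZD1, a WNT receptor, had 12.7, 3.92 and 3.97 CPM in DPPA and 1.91, 1.89 and 2.4 CPM in MHPA (log2 fold change 1.72, SE 0.57, adjusted p = 0.515 by edgeR). DPPA 1 was far above the rest, and without DPPA 1 and MHPA 1 the log2 fold change was 0.85 and no DEG. Leaving out DPPA 1, MHPA 1 or MHPA 2 alone also ended the call (0.93 to 2). WNT9A, a ligand, had 0.781, 1.61 and 2.04 and 4.73, 3.31 and 2.85 CPM (log2 fold change −1.29, SE 0.481, adjusted p = 0.515 by edgeR), and it too lost the call without them (−0.78), with the block and without any single library but DPPA 3 (−1.59 to −0.99). Of 26 tested junction genes, with a median of 0.22, CDH2, N-cadherin of endocrine and neural cells, was the DEG. It had 340, 451 and 512 CPM in DPPA and 107, 285 and 180 CPM in MHPA, separate groups (log2 fold change 1.19, SE 0.388, adjusted p = 0.515 by edgeR), and log2 fold changes of 0.88 to 1.58 when single libraries were left out, with the call lost without DPPA 2, DPPA 3, MHPA 1 or MHPA 3 and without TMM.

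Single immune and stress genes were DEGs. EQMHCC1, a class I gene of the horse major histocompatibility complex, had 0.208, 1.04 and 1.53 CPM in DPPA and 29.6, 4.67 and 80.9 CPM in MHPA. The MH libraries spanned more than 10-fold among themselves but all lay above the DP libraries (log2 fold change −5.36, SE 1.26, adjusted p = 0.47 by edgeR), and the call held in all 16 alternatives. Class I genes differ between haplotypes and have close paralogues, so reads can be split between them and the value is uncertain. The other 17 tested genes of the list held no DEG over the 6 libraries, and the median of the list was −0.051. CD14, the lipopolysaccharide co-receptor of macrophages, had 7.65, 3.26 and 4.43 CPM in DPPA and 9.91, 18.1 and 10.4 CPM in MHPA (log2 fold change −1.32, SE 0.44, adjusted p = 0.515 by edgeR). It was the only DEG of 15 macrophage genes over the 6 libraries (median −0.25), and its call was lost without DPPA 2, DPPA 3 or MHPA 2 (−1.73 to −1). Without DPPA 1 and MHPA 1, where 6.02% of all genes were DEGs, C1QA (−1.07, adjusted p = 0.0692 by edgeR) and CD163 (−1.05, adjusted p = 0.0791) were also DEGs lower in DPs. IFI44L, induced by interferons, had 52.7, 35.8 and 36.9 and 13.6, 21.7 and 17.7 CPM (log2 fold change 1.24, SE 0.271, adjusted p = 0.43 by edgeR) and was the only DEG of 20 interferon genes (median 0.21). Without DPPA 1 and MHPA 1 it fell under the fold threshold (0.86).

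Of 21 tested genes of the unfolded protein response, 6 had a positive and 15 a negative log2 fold change (median −0.43) and 2 were DEGs. SDF2L1, a protein of the endoplasmic reticulum chaperone complex, had 3.54, 7.18 and 7.54 CPM in DPPA and 10.6, 23.6 and 29.8 CPM in MHPA, lower in every DP library (log2 fold change −1.81, SE 0.494, adjusted p = 0.503 by edgeR) and in all 16 alternatives. CHAC1, a glutathione-degrading enzyme, went the other way, with 3.75, 2.13 and 2.6 and 0.61, 1.12 and 1.01 CPM (log2 fold change 1.61, SE 0.443, adjusted p = 0.503), but was no DEG without DPPA 1 and MHPA 1 (adjusted p = 0.234 by edgeR). Without those libraries, where 6.02% of all genes were DEGs, the list held 3 DEGs lower and 0 higher in DPs. The chaperone HSPA5 (−1.05, adjusted p = 0.0583 by edgeR) and CRELD2 (−1.07, adjusted p = 0.0505) then joined SDF2L1. DNAJA1, a co-chaperone of the heat shock protein 70 family, had 7.71, 3.68 and 6.57 CPM in DPPA and 30.3, 11.6 and 14 CPM in MHPA. This entry was lower in DPs by 3.11-fold (log2 fold change −1.64, SE 0.488, adjusted p = 0.503 by edgeR) in all alternatives. It was the only DEG of 14 cytosolic chaperones (median −0.27). Another entry with the symbol DNAJA1 had a log2 fold change of −0.46 and was no DEG, so the call holds for 1 entry of the gene.

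The remaining list DEGs were 5 genes. ZBTB16, a transcription factor induced by glucocorticoids, had 49.4, 51.7 and 39.4 CPM in DPPA and 152, 91.1 and 68.8 CPM in MHPA (log2 fold change −1.15, SE 0.323, adjusted p = 0.503 by edgeR). It was the DEG of 13 genes of steroid receptors and feedback (median −0.34) but not without DPPA 1 and MHPA 1 (−0.84) or without MHPA 1 alone (−1.38 to −0.80 over the single libraries). NR1D1, a repressor of the circadian clock, had 14.9, 13.6 and 8.45 and 3.97, 7.27 and 4.68 CPM (log2 fold change 1.21, SE 0.37, adjusted p = 0.503), among 19 clock genes with a median of −0.015. Its call was lost without DPPA 2 or MHPA 3 (1.01 to 1.49), without TMM and with limma on log2(RPKM + 1). The hour of sampling was not given in the sources used here. RPL35, a protein of the large ribosomal subunit, had 2689, 6242 and 4299 and 1520, 1786 and 2525 CPM (log2 fold change 1.18, SE 0.406, adjusted p = 0.515), while 22 of the 32 ribosomal protein genes had a negative log2 fold change (median −0.24). Its call was lost without DPPA 2, DPPA 3, MHPA 1 or MHPA 2 (0.85 to 1.44), without TMM and with limma on either RPKM scale. ACTN2, an actinin of the sarcomere, had 55, 1.37 and 1.37 and 1.45, 0.827 and 1.08 CPM, so that DPPA 1 alone was high (log2 fold change 4.10, SE 1.62, adjusted p = 0.529, with the call lost without DPPA 1 or any MHPA library at 0.30 to 4.65), and the median of the 12 muscle genes was −0.17. BUB1, a kinase of the spindle checkpoint, had 1.35, 1.98 and 0.611 and 0.381, 0.591 and 0.506 CPM (log2 fold change 1.40, SE 0.568, adjusted p = 0.539) and kept its call in only 3 of 16 alternatives (it did not pass the low-count filter without DPPA 1 or DPPA 2), with a median of 0.15 over 20 cell cycle genes. Without DPPA 1 and MHPA 1, RPL35 alone of these 5 remained a DEG.

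No DEG was found in the other lists over the 6 libraries. Folliculostellate and stem cell genes had a median of 0.36 over 11 genes, pericyte and smooth muscle genes −0.2 over 9, fibroblast and matrix genes 0.26 over 20, lymphocyte genes −0.16 over 10 and neutrophil genes −0.74 over 2. Of 12 erythroid genes, none passed the filter on low counts. The median was 0.097 for 11 cytokine genes, −0.051 for 18 immediate early genes, −0.11 for 16 genes of hypoxia and glycolysis and 0.14 for 16 genes of cholesterol synthesis. For lipid storage it was −0.45 over 10 genes, for retinoic acid 0.072 over 14, for ion channels 0.22 over 22, for bone and cartilage 0.7 over 8, for motile cilia −0.55 over 13 and for histones 0.48 over 4. The protein genes of the mitochondrial genome had 11 of 13 log2 fold changes positive and a median of 0.63, and their summed level overlapped between the breeds (170198, 136244 and 81809 CPM in DPPA and 132962, 68630 and 78001 CPM in MHPA).

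The lists gave other calls in the 4 hormone-rich libraries alone, 2 against 2, where 6.02% of all genes were DEGs. Of the 26 lists without a DEG over the 6 libraries, 19 then held at least 1, and the median changed sign in 13 of 43 lists. Motile cilia turned to a median of 0.41 with 4 of 13 genes DEGs higher in DPs. RSPH1, a protein of the radial spoke head, had 45.6, 90.6 and 80.4 CPM in DPPA and 110, 32.8 and 32.8 CPM in MHPA, so that the replicate 1 libraries lay in the reverse order of the others (log2 fold change 1.36 without them, adjusted p = 0.0291 by edgeR). Pericyte and smooth muscle genes moved to a median of −1.3, with 3 DEGs lower in DPs. Among these ACTA2, smooth muscle actin, had 144, 12.8 and 22.2 CPM in DPPA and 47.7, 27.7 and 133 CPM in MHPA, high in DPPA 1 and MHPA 3. The mitochondrial genome kept a median of 0.64 and had 3 DEGs higher in DPs, of which MT-ND2 had 15897, 8540 and 6787 CPM in DPPA and 10409, 2355 and 2485 CPM in MHPA (log2 fold change 1.64, adjusted p = 0.0443 by edgeR). Bone and cartilage genes held 2 DEGs higher and 1 lower in DPs, and COL9A1, a cartilage collagen chain, turned from a log2 fold change of −0.93 to 1.9.

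**Figure D4:**
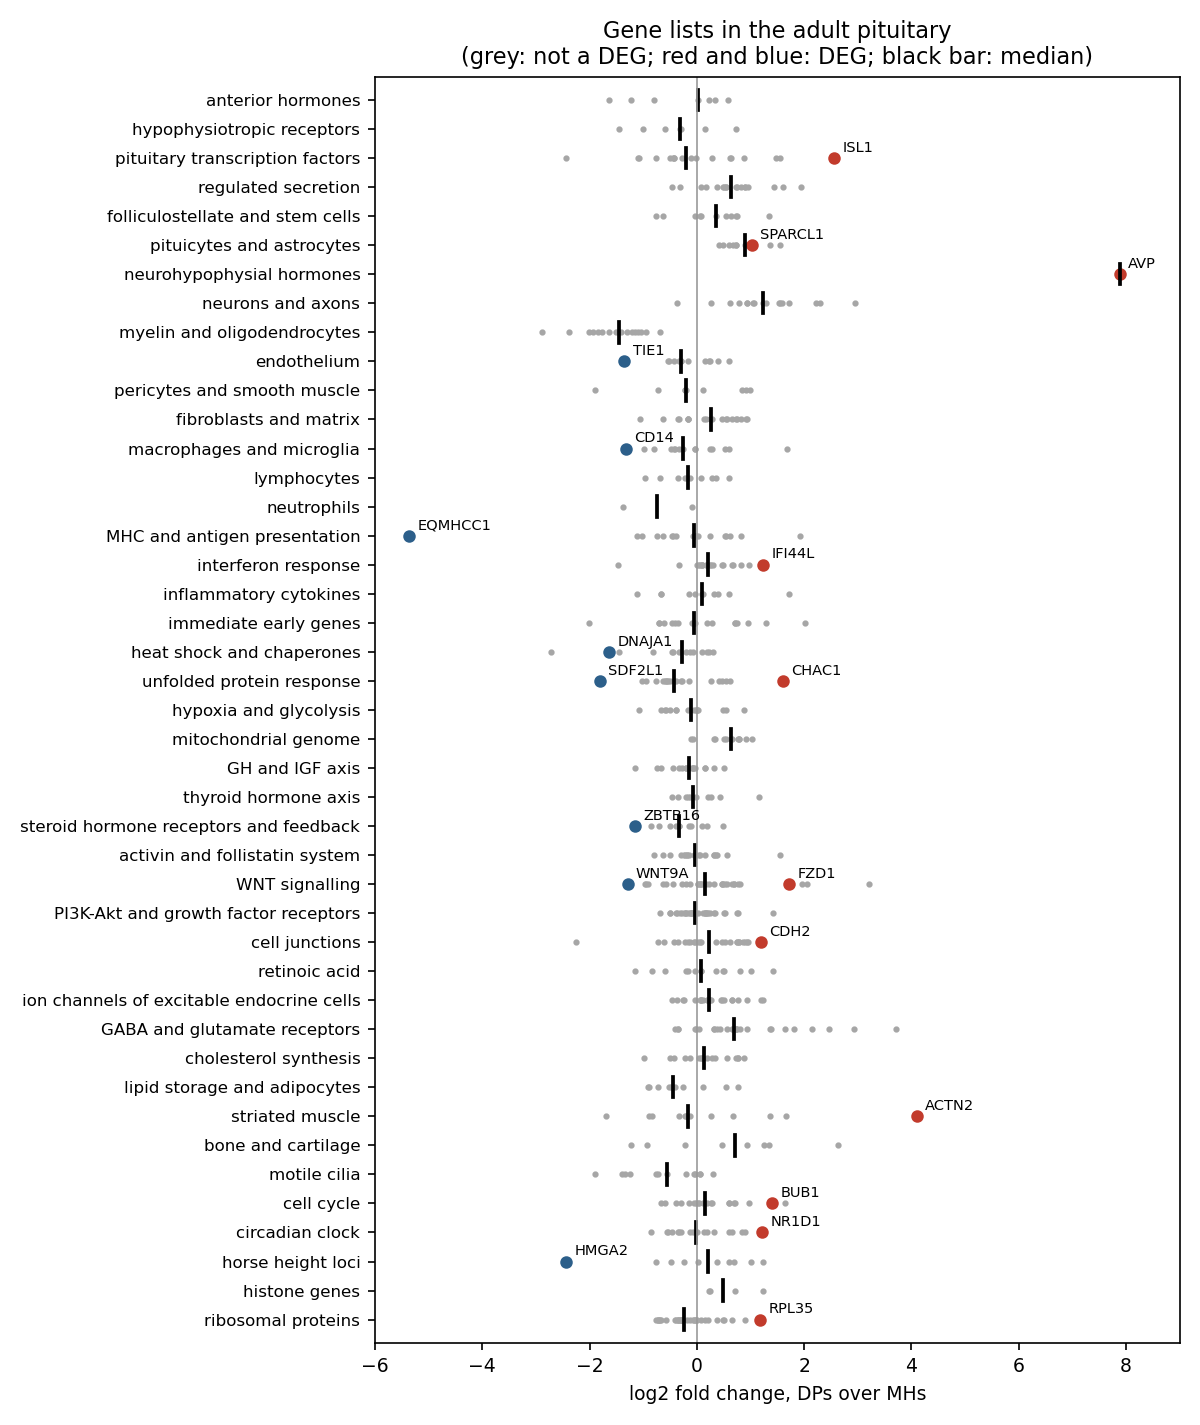
Log2 fold change of DPs over MHs (x axis) of every tested member of each gene list (rows), with DEGs named in red or blue, other genes in grey and the median of the list as a black bar. Most lists hold 0 or 1 DEG, and the myelin and neuronal lists lie to either side with medians of −1.5 and 1.2, which were 0.67 and 0.2 without DPPA 1 and MHPA 1.

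The juvenile pituitary, the comparison most like this one, shares no library with it but differs in its tissue. Summed anterior hormones were 41773, 33494 and 33486 CPM in the juvenile DP libraries and 1.07, 14.6 and 1.25 CPM in the juvenile MH libraries, so that all juvenile MH pieces were poor in hormone RNA. Depth differed by breed there too, with 18269442 to 21048794 reads in DPs and 11433209 to 16153537 in MHs. Of the adult DEGs, 399 were tested at the juvenile stage, where 20.3% of all genes were DEGs. In the same direction 60 were DEGs, 22 higher and 38 lower in DPs, and in the opposite direction 41 were. These 60 are 15% of the adult DEGs tested there and 2.03% of the 2962 juvenile DEGs. The sign was the same for 55.6% of the adult DEGs and for 52.4% of all 14201 genes tested at both stages.

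The short genes and 9 of the 12 named genes lower in DPs were also DEGs lower in DPs at the juvenile stage. All 5 short genes were again lower in DPs, at −2.09 to −1.54, with adjusted p values of 0.00996 to 0.0222 by edgeR. Of the 12 named genes, each had a negative log2 fold change and 9 were DEGs, in a comparison in which 12.7% of genes were DEGs lower and 7.6% DEGs higher in DPs. C17orf66 was lower at −4.49 (SE 0.652, adjusted p = 0.0196 by edgeR), ALPK1 at −1.72 (SE 0.237, adjusted p = 0.0184) and TIE1 at −1.14 (SE 0.196, adjusted p = 0.0264). STAB2, UPK3B and SBK1 were no DEGs among the juveniles, at −0.40, −1.79 and −0.85. None of the 12 named genes higher in adult DPs was a juvenile DEG, although 9 of the 11 tested there had a positive log2 fold change.

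**Figure D5:**
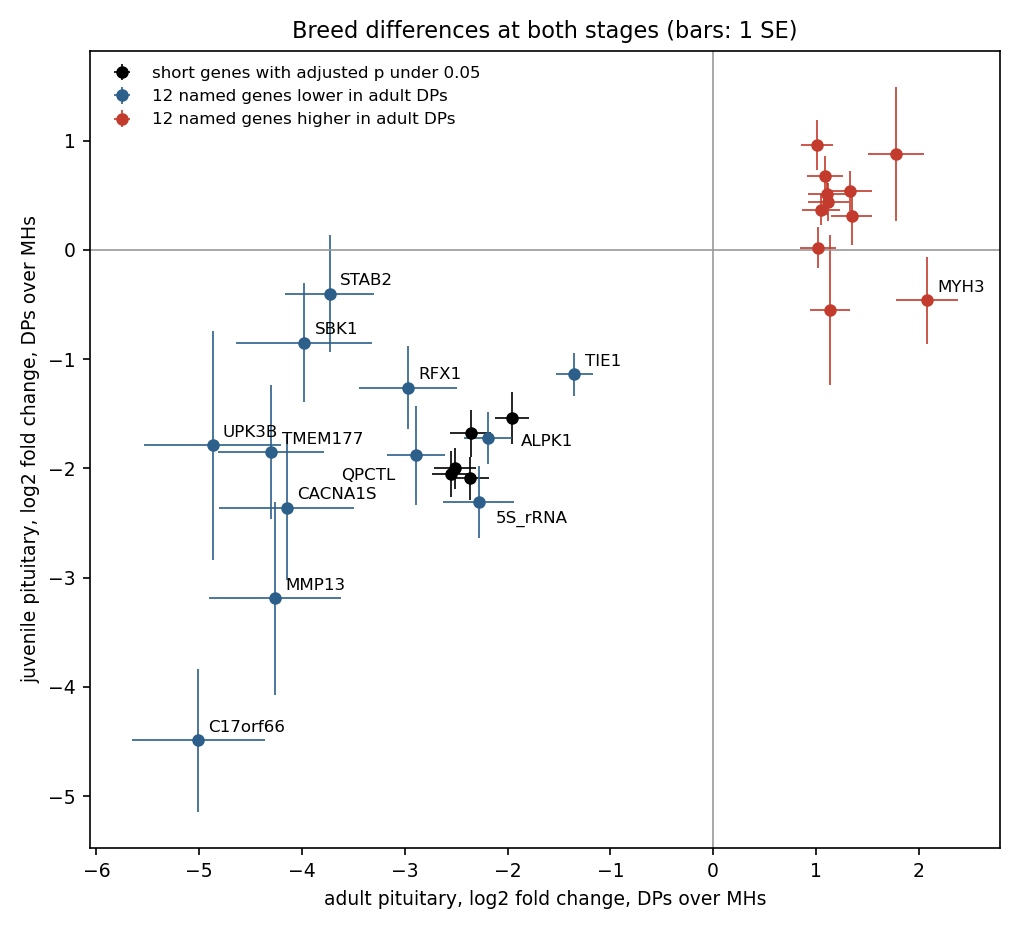
Log2 fold change of DPs over MHs in the adult (x axis) and juvenile pituitary (y axis) for the 5 short genes and the 12 named genes with the lowest adult P in each direction that were tested at both stages, with bars of 1 SE. All genes lower in adult DPs lie below 0 on the juvenile axis, while those higher in adult DPs lie between −0.55 and 0.96.

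A fit of all 12 pituitary libraries tested whether the breed difference changed with stage. Of 15200 genes, 3094 (20.4%) had an interaction P under 0.05, but none had an adjusted p under 0.05 by edgeR, where the lowest was 0.106, while DESeq2 gave 1253. No change between the stages was therefore established for single genes by the edgeR fit. For EQMHCC1 the adult log2 fold change was −5.36 and the juvenile one 5.16 (adjusted p of the interaction = 0.15 by edgeR). Among the juveniles DPPJ 2 alone was high, with 1185 reads against 4 to 18 in the other 5 libraries. For MYH3 the values were 2.08 and −0.46 (adjusted p = 0.131) and for STAB2 −3.73 and −0.40 (adjusted p = 0.131). Of the 12 named genes lower in adult DPs, 5 had an unadjusted interaction P under 0.05, namely STAB2, SBK1, TMEM177, RFX1 and UPK3B, each with the larger difference in the adults that had chosen it.

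The same genes were also measured in the adult long bone. The labels do not say whether the bone and pituitary libraries of a number came from the same horse. Of the 365 adult pituitary DEGs tested in bone, 74 were DEGs there in the same and 32 in the opposite direction. In the adult bone 2580 of 14073 genes were DEGs (18.3%), of which 1130 (8.03% of all genes) were lower in DPs and the rest higher. The 5 short genes were lower in DPs in bone as well, at −2.90 to −2.06. All were DEGs there at the unadjusted threshold, with adjusted p of 0.0656 to 0.142 by edgeR. In the juvenile bone they were at −1.21 to −0.15 with no DEG. TIE1 was lower in DPs in bone too (−1.62, SE 0.31, adjusted p = 0.0434 by edgeR), but 10 of the 12 named genes lower in the DP pituitary had a positive log2 fold change in bone. Among these, STAB2, UPK3B and MMP13 were DEGs higher in DPs (1.53, 3.45 and 3). In the juvenile bone, where 1899 genes were DEGs, 1 of the 12 kept the sign of the pituitary and 6 were DEGs higher in DPs. Of 349 adult pituitary DEGs tested in the juvenile bone, 29 were DEGs there in the same and 37 in the opposite direction. The sign was the same for 49.2% of all 13021 genes tested in both. Of the 12 named genes higher in the DP pituitary, 6 had a positive log2 fold change in the adult bone and 6 in the juvenile bone. CLGN was also a DEG higher in DPs in the adult bone (1.99) and the juvenile bone (2.71), with adjusted p = 0.0924 and 0.226 by edgeR. DBNL was a DEG higher in DPs in the adult bone alone (1.39, adjusted p = 0.069 by edgeR).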

How the data were processed

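RNA of 6 adult pituitary pieces had been depleted of ribosomal RNA and sequenced from directional libraries. The authors deposited whole-number read counts per gene, without normalization, and RPKM values (reads scaled by gene length and library size). Per the labels the processing tools were bcl2fastq, TopHat2 and edgeR, without versions, on NextSeq reads, whereas the paper's methods describe another instrument, trimming and Salmon. The 2 accounts were not reconciled, and how reads that fit several genes were counted is not stated. Counts were tested with edgeR 4.0.16 in R 4.3.3 (TMM, filterByExpr with a minimum count of 10, glmQLFTest, Benjamini-Hochberg adjustment over all tested genes). The scripts were tested on simulated data. CPM are scaled with TMM factors. No genome of the files' build was used, so no coordinates or sequences are given. The paper's methods name 3 adult horses of each breed, and p-values measure the spread between these libraries, in which horse and piece of tissue cannot be told apart. With 3 libraries against 3, an exact two-sided permutation test cannot go below 0.1.

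Named were all genes with an adjusted p under 0.05, the 12 DEGs with a symbol, separate breeds and the lowest P in each direction, the 7 anterior hormone genes, the DEGs of 44 gene lists (96 of their 827 genes had no match in the files) and, in lists without a DEG, the 2 genes of highest CPM, of which only some are given. Members and lists were chosen with earlier results of these data known. Libraries with the same number deviated together from their breed's mean (r = 0.642, 0.531 and 0.35 for numbers 1, 2 and 3), but 2 with 3 gave 0.514 and 3 with 2 gave 0.328, and the numbers belong to different horses, so the pairing comes from these correlations and not from the design. Alternatives were library size without TMM, DESeq2 1.42.0, no filter, edgeR's exact test, limma 3.58.1 on log2(RPKM + 1) and log2(RPKM + 0.1), all 12 pituitary libraries, a replicate block, each library left out, both libraries numbered 1 left out, and hormone content as a covariate.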

Additional observations from a re-analysis of the deposited data

How the results depend on the processing

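Main limits are that 3 libraries stood for each breed, that 1 of each 3 held almost no anterior lobe RNA, that breed moved with depth and with any handling that differed between breeds, and that the threshold is unadjusted. The number of DEGs, 421, was 201 with limma on log2(RPKM + 1), 866 without both libraries numbered 1 and 703 with hormone content as a covariate, and 415 to 785 when single libraries were left out, with 785 without MHPA 1. Higher in DPs were 131 without TMM, 76 and 125 with limma on log2(RPKM + 1) and log2(RPKM + 0.1), 486 without both libraries numbered 1, 477 with the hormone covariate and 204 to 483 when single libraries were left out. Lower in DPs were 349 without TMM, 300 without the low-count filter, 380 without both libraries numbered 1 and 141 to 302 without single libraries. The numbers of DEGs under the other alternatives were within 1.5 times the main value. Genes with an adjusted p under 0.05 were 5, against 275 with DESeq2, 42 with edgeR's exact test, 20 in the fit of 12 libraries, 126 without both libraries numbered 1 and 21 with the hormone covariate. They were 0 without TMM, 0 without the filter, 0 with limma on either scale and 0 to 0 when any single library was left out, where 1419, 1342, 1096, 1094 and 771 to 1880 genes had an unadjusted P under 0.05. The cause was not tested, beyond the smaller number of libraries when some were left out.

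With the replicate block, 593 genes were DEGs and 0 had an adjusted p under 0.05 (1910 with an unadjusted P under 0.05). Of the named DEGs it ended the call of ACTN2, AVP, BUB1, SPARCL1 and WNT9A, and of the genes chosen after their values were seen that of PENK, PRLR and TSHR, and it changed no other call of a named DEG. The interaction of breed and stage, 2382 genes, was 1359 to 3860 without single libraries (1359 without DPPA 1 and 3860 without MHPA 1) and 2221 with the block. Its genes with an adjusted p under 0.05, 0 in the main fit, were 1253 with DESeq2 and 0 to 344 without single libraries, namely 2 without DPPA 1, 7 without MHPA 1 and 344 without MHPJ 2.

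No named DEG of the 6 libraries changed sign under any alternative in which it was tested. Of the 51 genes named for lists without a DEG, 13 had the other sign without both libraries numbered 1 or with the block, among them S100B (−0.76 and 1.11 without both), SPP1 (−1.22 and 0.34) and COL9A1 and CCDC39, which were DEGs without both (−0.93 and 1.9, −1.40 and 1.31). In the hormone genes, none of them a DEG over the 6 libraries, the log2 fold change without TMM was −0.24 for GH, −0.01 for POMC and −0.01 for CG, and without the filter 0 for GH. The lutropin beta gene was −0.27 and −0.48 with limma on log2(RPKM + 1) and log2(RPKM + 0.1), −0.12 with the block and −0.11 with the hormone covariate, and GH was −0.01 without both libraries numbered 1. The hormone covariate was the mean log CPM of these same hormone genes, lutropin beta among them, so it does not test their own breed difference. With single libraries left out, the log2 fold change was −0.69 to 1.07 for GH, −2.50 to 0.28 for PRL, −1.67 to 2.12 for POMC, −4.67 to 1.52 for TSHB, −0.59 to 0.86 for CG, −2.12 to 0.03 for FSHB and −0.35 to 1.51 for lutropin beta.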

Other observations

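Genes outside the rule for named genes were chosen here after their values were seen. ID4, an inhibitor of basic helix-loop-helix factors found in neural precursors, had 401, 148 and 305 CPM in DPPA 1 to 3 and 76.2, 34.9 and 39.1 CPM in MHPA 1 to 3. Every DP library was above every MH library, and the log2 fold change was 2.51 (SE 0.487, adjusted p = 0.39 by edgeR) over all 6 libraries and 2.59 without DPPA 1 and MHPA 1. SALL2, a zinc finger transcription factor, had 172, 117 and 184 and 37.3, 67.8 and 27 CPM, and MYCN, a MYC family factor of neural and endocrine precursors, had 7.29, 6.28 and 20.8 and 1.14, 2.3 and 1.96 CPM. RAMP2, the partner of the adrenomedullin receptor, had 20.1, 9.3 and 11.7 and 4.19, 5.44 and 2.21 CPM. These 4 genes were DEGs higher in DPs in all 16 alternatives, with adjusted p of 0.39 to 0.503 by edgeR, and none was a DEG in the juvenile pituitary.

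PENK, the enkephalin precursor, had 626, 24.6 and 121 CPM in DPPA and 5.34, 25.6 and 23 CPM in MHPA, high in DPPA 1 and in DPPA 3. Its log2 fold change of 3.84 (SE 1.27, adjusted p = 0.515 by edgeR) was no DEG without DPPA 1 and MHPA 1, with the block, with the hormone covariate, with limma, or without DPPA 1 or any MHPA library (2.01 to 4.37). TSHR, the thyrotropin receptor, which in sheep and other mammals marks the pars tuberalis, had 6.93, 0.425 and 7.74 and 0.305, 0.65 and 0.316 CPM. DPPA 1 and 3 were high and the other 4 libraries near 0, and the call was lost without DPPA 1 and MHPA 1, with the block, with limma or without MHPA 3 (3.08 to 4.08). PRLR, the prolactin receptor, was lower in adult DPs with 10.2, 23.3 and 26.9 and 108, 38.3 and 32.8 CPM (log2 fold change −1.57, SE 0.592) and higher in juvenile DPs (4.57, SE 0.415). The adjusted p of its interaction was 0.106 by edgeR, the lowest value of any gene. MHPA 1 was far above the other adult libraries, and the adult difference was −0.53 without the replicate 1 libraries and lost its call without MHPA 1 or any DPPA library (−1.86 to −0.85), with the block (−1.40) and with the hormone covariate (−1.3).

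In the 4 hormone-rich libraries alone, 2 against 2, 126 of 14394 genes had an adjusted p under 0.05 by edgeR, 86 higher and 40 lower in DPs. Of these 126, 60 were DEGs over all 6 libraries, where 2.93% of tested genes were DEGs. The 4 libraries are part of the 6 that chose the named genes, so the overlap is no independent check of them. Among these 126 were the 5 short genes, 11 of the 12 named genes with the lowest P lower in DPs (all but 5S_rRNA) and 7 of the 12 higher in DPs (CLGN, DBNL, GPATCH11, MYH3, POLR3GL, SMARCE1 and SRSF4). Of the 19 DEGs of the gene lists, 2 were among them, TIE1 and SDF2L1. FABP5, a fatty acid-binding protein, was not a DEG over the 6 libraries and had 567, 127 and 110 CPM in DPPA and 392, 26.1 and 19.1 CPM in MHPA. Both replicate 1 libraries were high, and the log2 fold change without them was 2.36 (SE 0.194).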
